A study of Mus musculus with 16 samples.

Results

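The nuclear genes of oxidative phosphorylation encode most subunits of the 5 protein complexes in the inner mitochondrial membrane that make ATP from oxygen. They were taken by symbol from a table of 18167 genes measured in mouse spinal cord: Nduf symbols of classes a, b, c, s and v for complex I, Sdha to Sdhd for complex II, Uqcr symbols for complex III, the Cox4 to Cox8 symbols for complex IV and Atp5 symbols for complex V. Of 83 matching symbols, 82 had a mean log2(1 + FPKM) of at least 1 over all 16 mice and were kept. FPKM counts fragments relative to the length of the transcript and to all mapped fragments, so levels can be compared between genes. Complex I held 37 of the genes, complex II 4, complex III 8, complex IV 16 and complex V 17. Just inside the limit was Cox6a2 with a mean of 1.17, which it reached through its level in MO, as its means were 0.86 in WY, 0.64 in MY, 0.70 in WO and 2.15 in MO. Just outside the limit was Cox7b2, an isoform of subunit 7B of complex IV, with a mean of 0.74. In WO vs. MO, Cox7b2 had a log2 difference of -0.16 (SE 0.17).

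In the respiratory chain, complexes I and II take electrons from NADH and succinate and hand them to coenzyme Q, complex III passes them to cytochrome c, and complex IV passes them to oxygen. The proton gradient built on the way drives ATP synthesis by complex V, and neurons, with their high demand for ATP, depend on it strongly. Several subunits of complex IV come as isoforms from separate genes, a widespread one and one known mainly from muscle, testis, lung or other tissues. Subunits encoded by mitochondrial DNA were not in the table and were not analysed here. Some symbols that matched do not name subunits in the strict sense: Cox7a2l joins complexes III and IV into supercomplexes, and Atp5s and Atp5sl are accessory or assembly proteins. Ndufa4, counted here with complex I by its symbol, is now known as a subunit of complex IV.

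All 16 mice carried a human profilin 1 transgene under the mouse prion protein promoter, and no mice without a transgene were measured. Mutant mice (M) came from the line Tg(Prnp-PFN1*G118V)838Kiaei/J, whose transgene carries the change G118V, linked to amyotrophic lateral sclerosis, and control mice (W) from the line Tg(Prnp-PFN1)850Kiaei/J, with the wild-type sequence. Both lines are on the C57BL/6N background. Each genotype was 1 line, so genotype and line cannot be told apart. Young mice were 50 days old, 3 of the wild-type line (WY) and 3 of the mutant line (MY). The 5 old wild-type mice (WO) were 190 days old in 3 cases and 294 days old in 2. The 5 old mutant mice (MO), at the end stage of disease, were 198, 190, 245, 224 and 175 days old in the order MO1 to MO5. The labels put WO4, WO5, MO4 and MO5 in batch 2 and all other mice in batch 1, and the table had been corrected for batch by the authors. The table does not give the number of fragments behind each value.

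The labels describe male mice, and 1 library went against that. In the library labelled MO5, Xist, the RNA that coats the silent X chromosome of females, was at a log2 level of 3.21, against -0.36 to 0.37 in the other 15 libraries. The Y-linked Ddx3y was at 1.95 against 4.06 to 4.74 elsewhere, Uty at 1.05 against 2.03 to 2.49, Kdm5d at 1.07 against 2.16 to 2.84 and Eif2s3y at 1.82 against 3.66 to 4.63. The counts and the called members are therefore also given without it, while list genes, neighbours, shares and marker sums are given with it only. Negative values such as that of Xist in MO4 came with the authors' batch correction, and 915 values of the table were below 0.

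Across the mice, most of the genes were abundant and moved together from mouse to mouse. Group means ran from 0.64 for Cox6a2 in MY to 10.1 for Cox4i1 in WY. The genes made up 4.24% of the summed FPKM in MO1 and 6.17% in WO2, the ends of the range over the 16 mice. The median level of the 82 genes was 7.86, 7.54 and 7.77 in WY, 7.55, 7.61 and 7.59 in MY, 7.79, 8.02, 7.97, 7.54 and 7.63 in WO, and 7.37, 7.83, 7.62, 7.92 and 7.70 in MO. The groups overlapped. The MY mice were close together, while in WY, WO and MO mice of the same group lay further apart than the group means, which ran from 7.58 to 7.79. In WO the batch 1 mice were above the batch 2 mice, with mean medians of 7.93 and 7.58. In MO only the means were in the other order, at 7.61 and 7.81, as MO2 of batch 1 lay above MO5 of batch 2.

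**Figure D1:**
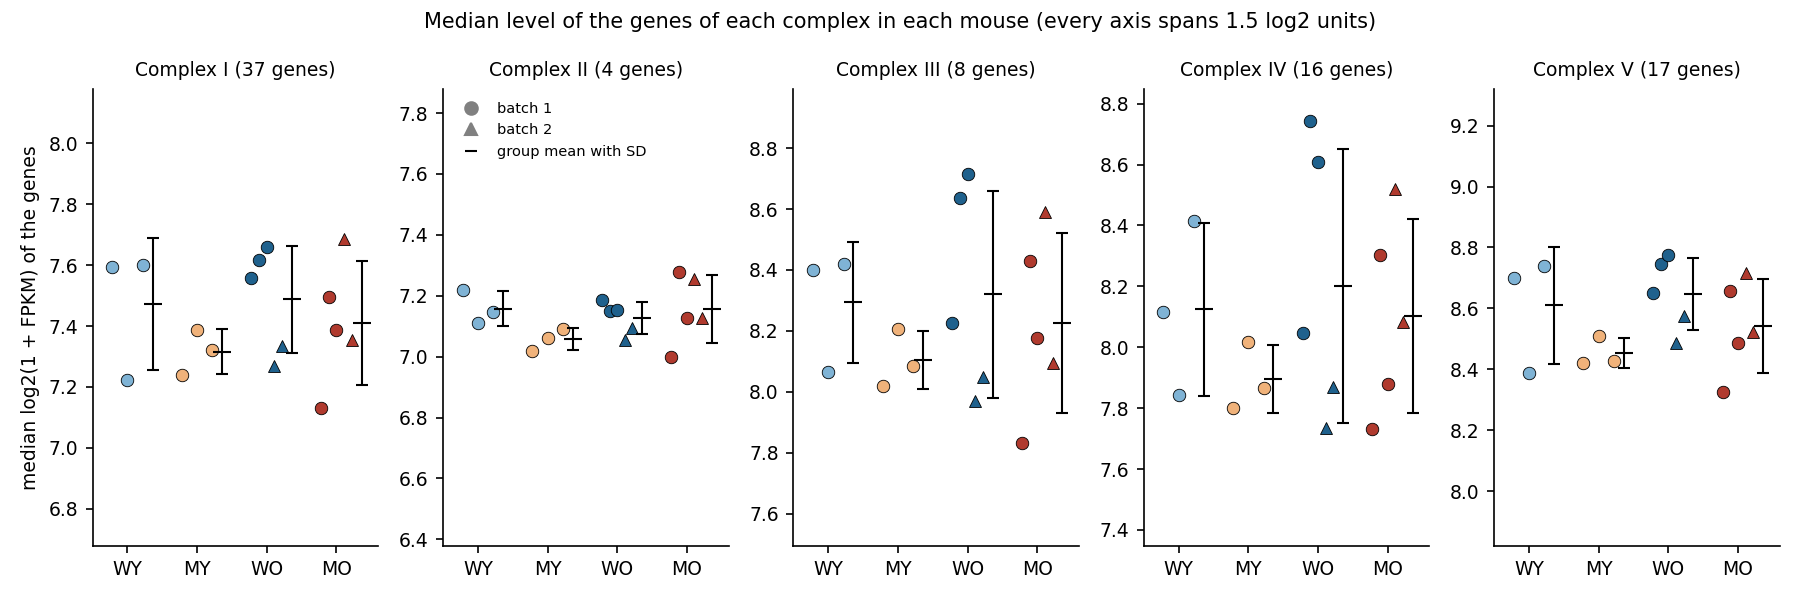
Median log2(1 + FPKM) of the genes of each complex in each mouse, with circles for batch 1, triangles for batch 2 and the group mean with SD beside them. WO and MO overlap in every complex, and in complex IV the WO mice run from 7.73 to 8.74.

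Apart from MO3, the direction of these shifts was shared by other genes with short transcripts. Transcripts of the genes had a median length of 865 bases, against 3174 bases for other genes with a mean of at least 1, and 59.3% of them were under 1000 bases, against 5.68% of the others. In MO4, 78 of the 82 genes were above the MO mean, with a median deviation of 0.22, against 0.14 over 736 other genes with transcripts under 1000 bases and -0.01 over 12230 longer ones. In MO1 only 4 of the 82 were above it, and the same medians were -0.24, -0.20 and 0.00. In WO4 they were -0.19, -0.13 and 0.00, and in WY2 -0.19, -0.18 and 0.01. In MO3, where 12 of the 82 were above the MO mean, they were -0.07, 0.01 and -0.00. Long genes thus showed no such shift in these mice. Outside MO3, the genes of oxidative phosphorylation and other short genes rose and fell together. The cause was not tested. The SD within groups had a median of 0.19 over the 82 genes, against 0.10 over other genes with a mean of at least 1. It was lowest for Sdha at 0.05 and highest for Ndufs5 at 0.86.

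The question of what differed at the end stage was put to WO vs. MO, which compares genotypes at old age, and to MY vs. MO, which compares ages within the mutant line. In WO vs. MO, 3 of the 82 genes were higher in MO at an FDR of at most 0.05, where 15% of all 18167 genes were, and 4 were lower, where 12.9% of all genes were. FDR here is limma's p-value adjusted over all genes by the method of Benjamini and Hochberg. The share called was 8.54%, against 27.9% over all genes, a contrast given with no test. The higher genes were Cox6a2, Cox6b2 and Cox7a2l and the lower ones Ndufs1, Sdha, Cox8b and Atp5b. Past a fold change of 1.5 were 2 of the 82, Cox6a2 and Cox6b2, both higher, where 4.08% of all genes were. This count depends in part on the level limit, since Cox6a2 was kept because of its level in MO. Estimates were below 0 for 61 of the 82, with a median of -0.07 against 0.00 over all genes. When each mouse was scaled to the same summed FPKM the split became 2 higher and 20 lower, and after quantile normalization 3 higher and 18 lower. The share called was then 26.8% against 31.1% of all genes with scaling and 25.6% against 31.7% with quantile normalization. In this comparison, most of the gap in the share called thus depended on how the mice were scaled. The median of the 82 genes was then -0.17 with scaling and -0.14 with quantile normalization, against -0.07 and -0.03 over all genes. The gap in the median therefore did not shrink. The median of the 82 genes was -0.13 with the length trend removed and -0.17 without the 294-day-old mice.

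The direction of this comparison differed between the mice of the 2 batches. Between the 3 WO and 3 MO mice of batch 1 the median log2 difference was -0.22 and 77 of the 82 genes were lower in MO. Between the 2 and 2 mice of batch 2 the median was 0.22 and 18 were lower. In 59 genes the estimate was below 0 in batch 1 and above 0 in batch 2, in 18 it was below 0 in both and in 5 above 0 in both. The downward median of the pooled comparison was thus larger among batch 1 mice and turned upward among the others. WO4 and WO5 were also the 294-day-old mice, so batch and age cannot be told apart there.

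In MY vs. MO, which shares its MO mice with WO vs. MO, 4 genes were higher in MO, Cox6a2, Cox6b2, Cox4i2 and Cox7a2l, where 13.1% of all genes were, and 1, Ndufs1, was lower, where 12.5% were. Both genes past a fold change of 1.5 were again Cox6a2 and Cox6b2, where 4.11% of all genes were higher by that much. The median log2 difference was 0.12, against 0.00 over all genes, and 62 estimates were above 0. The count of higher genes depended on 1 mouse, since without MO1 it was 15. The share called without MO1, in either direction, was 19.5%, against 28.2% of all genes. All MY mice were in batch 1, and against the batch 1 MO mice alone the median was 0.03. With all mice and no further scaling, the share called was 6.1% against 25.6% of all genes. Scaling to the same summed FPKM gave 3 higher and 6 lower with a median of 0.01, and quantile normalization 4 higher and 10 lower with a median of -0.00. The share called was then 11% against 29.5% of all genes with scaling and 17.1% against 28.9% with quantile normalization. Over all genes the median was -0.07 with scaling and -0.03 with quantile normalization, so the 82 genes still lay above it. With the trend over transcript length removed the median was -0.01, against -0.00 over all genes. Without the library labelled MO5, the counts were 3 higher and 2 lower in WO vs. MO and 4 higher and 1 lower in MY vs. MO. The share called was then 6.1% in both, against 25.9% and 23.7% of all genes.

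**Figure D2:**
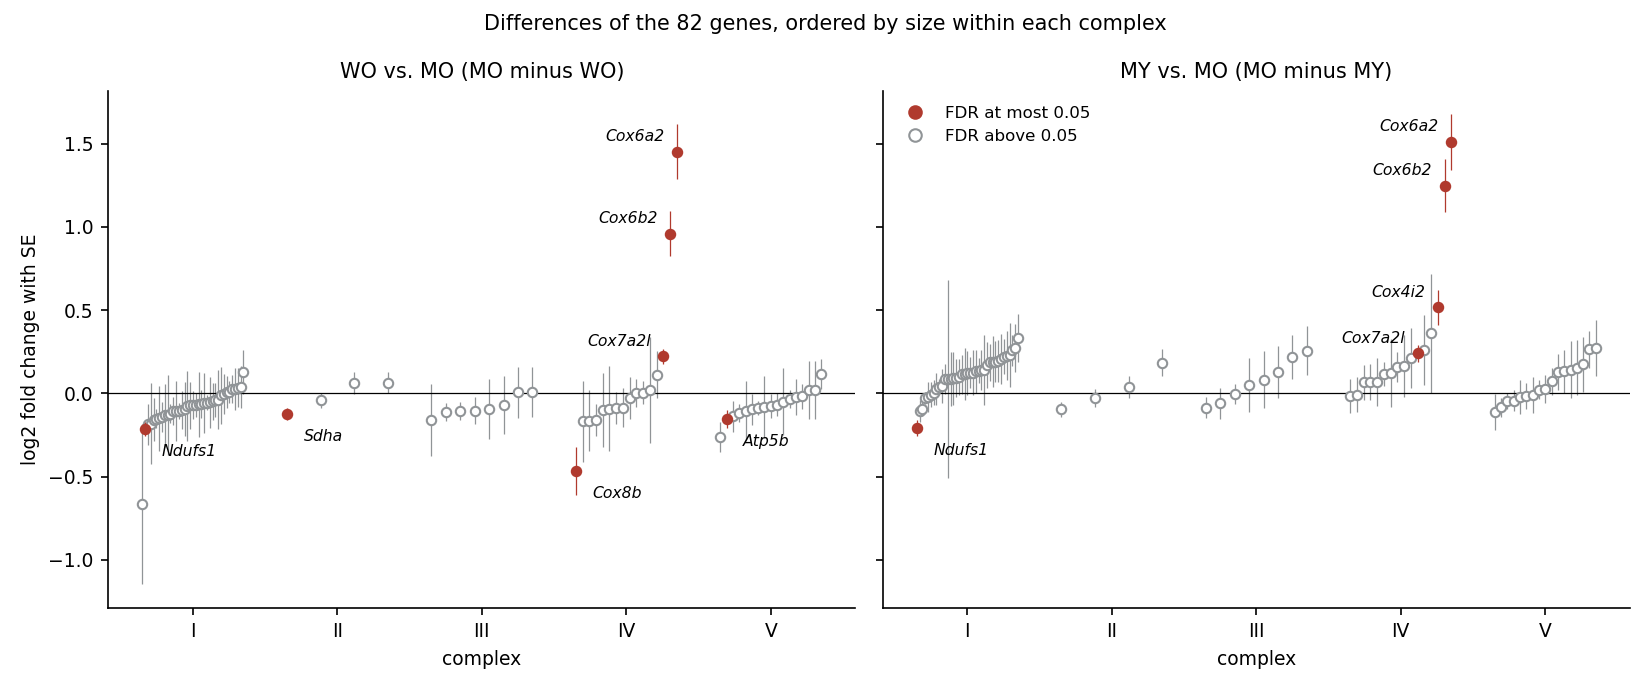
Log2 fold change with SE of each of the 82 genes in WO vs. MO and MY vs. MO, ordered by size within each complex, with filled points for an FDR of at most 0.05. Most genes lie near 0, and Cox6a2 and Cox6b2 of complex IV stand highest in both comparisons. Cox6a2 passed the level limit of the set only through its MO values.

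Complex I, which oxidizes NADH, had 1 called gene in WO vs. MO and 1 in MY vs. MO, both times Ndufs1. That share, 2.7% of its 37 genes in both, was below the 27.9% and 25.6% over all genes. Ndufs1 encodes the largest subunit, which carries iron-sulfur clusters on the path of the electrons. Its log2 level was 6.12, 6.45 and 6.38 in WY, 6.39, 6.29 and 6.40 in MY, 6.29, 6.33, 6.43, 6.40 and 6.40 in WO, and 6.12, 6.26, 6.11, 6.16 and 6.12 in MO. Every MO mouse was below every WO and MY mouse, although WY1 was as low as the MO mice. Ndufs1 was lower in MO by a log2 difference of -0.21 (SE 0.04, FDR 0.00341) in WO vs. MO and of -0.21 (SE 0.05, FDR 0.0166) in MY vs. MO, which is 0.862 and 0.867 of 1 + FPKM. Within batch 1 the WO vs. MO difference was -0.19 (FDR 0.123) and within batch 2 -0.26 (FDR 0.0717). In MY vs. MO the FDR was 0.0774 without MY1 and 0.0755 without MY3, and among batch 1 mice, the fit free of batch, it was 0.0571. Without MO5 the differences were -0.21 (FDR 0.00962) and -0.20 (FDR 0.0339). Exon bases of Ndufs1 overlap genes of the opposite strand at 498 of 8086 positions, and since the strand setting of the authors' counting was not stated, reads of such pairs cannot be told apart.

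Further core subunits of complex I were not called. Ndufv1, which binds NADH, had the lowest estimate among those named here in WO vs. MO at -0.15 (SE 0.06, FDR 0.0765), and in MY vs. MO it was -0.03 (SE 0.04). Ndufs3, Ndufs7, Ndufs8 and Ndufv2, which line the route to coenzyme Q or hold further iron-sulfur clusters, lay between -0.11 and 0.01 in WO vs. MO and between -0.02 and 0.14 in MY vs. MO. Over the 37 genes the median was -0.07 in WO vs. MO, with 30 estimates below 0, and 0.12 in MY vs. MO, with 31 above 0. Ndufa4 had the highest mean level, 9.94, and a difference of -0.13 (SE 0.19) in WO vs. MO. Ndufs5, a small accessory subunit chosen after its values were seen, ran from 3.01 in MY2 to 5.58 in WO5, and its difference of -0.67 in WO vs. MO had an SE of 0.48, within the spread of the mice.

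Ndufa4l2, a relative of Ndufa4 known to be induced at low oxygen, was the least abundant gene counted with complex I, with a mean of 1.55. Its log2 level was 2.22, 1.55 and 1.65 in WY, 1.18, 1.25 and 1.39 in MY, 1.84, 1.67, 1.58, 1.34 and 1.84 in WO, and 1.18, 1.36, 1.66, 1.73 and 1.41 in MO. The MY mice were all below the WY mice, whereas WO and MO overlapped. Neither difference passed the test, with an FDR of 0.657 in WY vs. MY and 0.307 in WO vs. MO.

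Complex II, succinate dehydrogenase, also serves the TCA cycle, and its catalytic flavoprotein Sdha was the 1 of its 4 genes that was called. That share, 25% in WO vs. MO, was near the 27.9% over all genes. Sdha was at 7.65, 7.78 and 7.71 in WY, 7.79, 7.72 and 7.76 in MY, 7.84, 7.73, 7.77, 7.79 and 7.80 in WO, and 7.67, 7.75, 7.60, 7.66 and 7.63 in MO. MO2 lay among the WO mice and the other MO mice lay below them. The log2 difference in WO vs. MO was -0.13 (SE 0.04, FDR 0.029), 0.917 of 1 + FPKM in WO, and in MY vs. MO it was -0.10 (SE 0.04, FDR 0.159). Within batches it was -0.11 (FDR 0.3) and -0.15 (FDR 0.189). The call was lost on leaving out WO1 (FDR 0.0624), WO4 (0.0571), WO5 (0.0675), MO3 (0.0714), MO4 (0.0511) or MO5 (0.0618). The iron-sulfur subunit Sdhb and the membrane anchors Sdhc and Sdhd were not called, with differences of 0.06, 0.06 and -0.04 in WO vs. MO and of 0.18, 0.04 and -0.03 in MY vs. MO. With scaling to the same summed FPKM, Sdhd was called lower in WO vs. MO.

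Complex III, which hands electrons from coenzyme Q to cytochrome c, had 0 of 8 genes called by limma in WO vs. MO and MY vs. MO, and 0 with an unadjusted p-value under 0.05 in both. Over all genes the shares called were 27.9% and 25.6%, and 6986 and 6673 of the 18167 had an unadjusted p-value under 0.05. The core proteins Uqcrc1 and Uqcrc2 had log2 differences of -0.11 (SE 0.06, FDR 0.168) and -0.11 (SE 0.05, FDR 0.17) in WO vs. MO. The Rieske iron-sulfur protein Uqcrfs1, with the lowest mean level of the complex at 7.01, had one of -0.10 (SE 0.08). Uqcrh, the hinge protein that docks cytochrome c, had the highest mean level at 9.12 and a difference of -0.07 (SE 0.17). WO and MO overlapped in all of these. With other scaling some were called lower in WO vs. MO: Uqcrc1, Uqcrc2 and Uqcrfs1 when each mouse was scaled to the same summed FPKM, Uqcrc1 and Uqcrc2 after quantile normalization, and Uqcrc1 with the length trend removed. Scaling also made Uqcrc2 lower in MY vs. MO.

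With no further scaling, complex IV, cytochrome c oxidase, held most of the called genes, and these were isoforms and Cox7a2l. In WO vs. MO 3 of its 16 genes were higher and 1 lower, and in MY vs. MO 4 were higher. The share, 25% in both, was near the 27.9% and 25.6% over all genes. The abundant Cox4i1, Cox5a and Cox5b, which surround the catalytic subunits, had log2 differences of 0.00 (SE 0.07), -0.16 (SE 0.10) and -0.09 (SE 0.11) in WO vs. MO, none called. Cox4i1 was called lower after quantile normalization, at -0.30 in WO vs. MO and -0.22 in MY vs. MO, where its estimates without it were 0.00 and 0.12. Cox5a was called lower in WO vs. MO with scaling to the same summed FPKM, with quantile normalization and with the length trend removed, Cox5b with quantile normalization, and Cox8a, the widespread form of subunit 8, with quantile normalization and with the length trend removed. Both Cox5a and Cox5b were called lower with quantile normalization in MY vs. MO. Whether the abundant subunits differed therefore depended on the scaling. So did the place of complex IV among the called genes. With scaling to the same summed FPKM, 22 of the 82 genes were called in WO vs. MO, and those of complex IV were Cox6a2, Cox6b2, Cox5a and Cox8b. Complex IV did not hold most of the 21 called after quantile normalization either.

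Cox6a2 encodes the form of subunit 6A known from heart and skeletal muscle. Its log2 level was 0.76, 0.85 and 0.99 in WY, 0.80, 0.49 and 0.62 in MY, 1.00, 0.99, 0.65, 0.47 and 0.38 in WO, and 2.40, 1.74, 2.50, 1.99 and 2.13 in MO. Every MO mouse was above every other mouse, with no overlap. The gene entered the set through these MO values, but its test was run over all 18167 genes, with no level limit. It rose by 1.45 (SE 0.17, FDR 0.000139) in WO vs. MO, 2.74-fold on the scale of 1 + FPKM, and by 1.51 (SE 0.17, FDR 0.000622) in MY vs. MO. Within batch 1 the rise in WO vs. MO was 1.33 (FDR 0.00964) and within batch 2 it was 1.64 (FDR 0.00116), and without MO5 it was 1.46. Because the gene is low, the size depends on the constant added before the logarithm, and with 0.1 in place of 1 the differences were 2.35 and 2.44. Cox6a1, the widespread form, chosen after its values were seen, had a mean of 9.28 and a difference of 0.00 (SE 0.08) in WO vs. MO. So Cox6a2 stayed a small part of subunit 6A transcripts, 0.763%, 0.338%, 0.772%, 0.399% and 0.524% of their summed FPKM in MO and 0.0505% to 0.162% in the other mice. In bulk tissue, a change in the number of cells that hold a transcript and a change in the RNA per cell cannot be told apart.

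Cox6b2 encodes the form of subunit 6B known from testis. It was at 3.30, 2.23 and 2.85 in WY, 2.80, 2.38 and 2.46 in MY, 2.74, 2.95, 3.13, 2.78 and 2.58 in WO, and 3.62, 3.97, 4.06, 3.42 and 3.90 in MO. Here too the MO mice were above all others, the nearest being WY1. It rose by 0.96 (SE 0.14, FDR 0.000492) in WO vs. MO, 1.95-fold, and by 1.25 (SE 0.16, FDR 0.0011) in MY vs. MO. Within batches the WO vs. MO rise was 0.94 (FDR 0.00861) and 0.98 (FDR 0.0375), and without MO5 it was 0.93. Its share of the summed FPKM of Cox6b1 and Cox6b2 was 2.25%, 2.18%, 2.63%, 1.36% and 2.37% in MO and 0.704% to 1.35% elsewhere. Cox6b1, also chosen after its values were seen, had a difference of -0.03 (SE 0.13) in WO vs. MO.

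**Figure D3:**
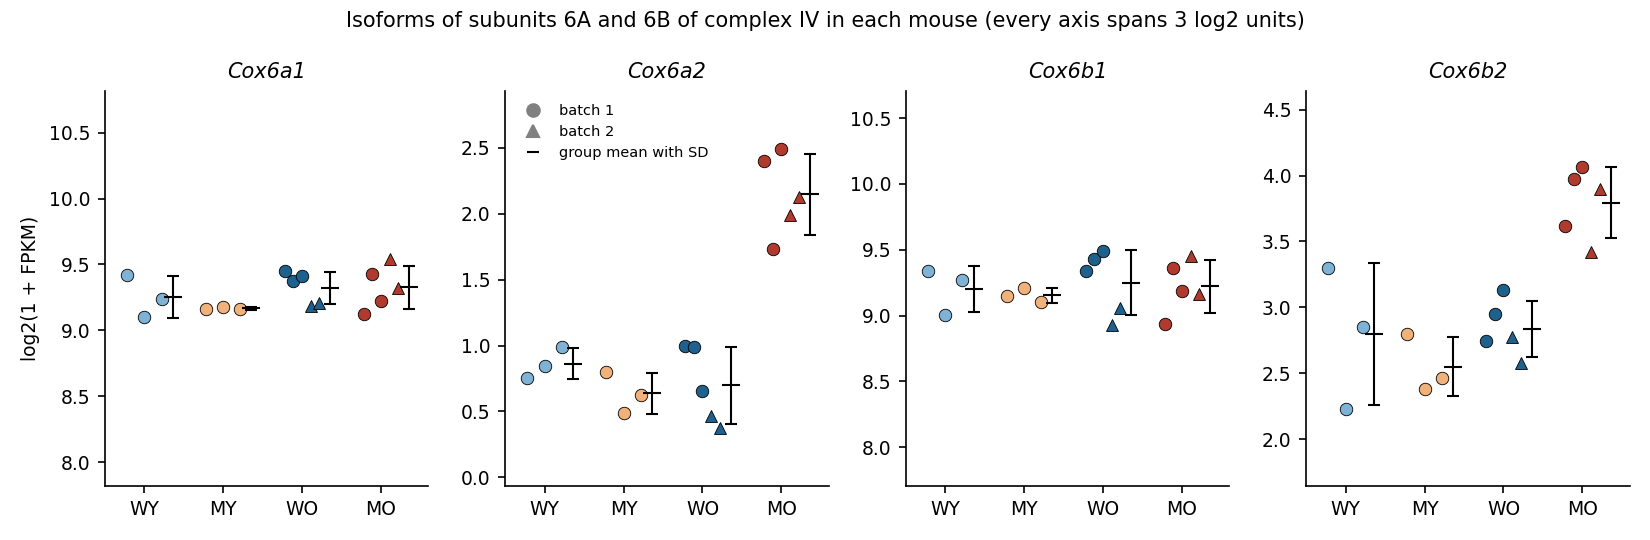
Log2(1 + FPKM) of the widespread (Cox6a1, Cox6b1) and tissue-restricted (Cox6a2, Cox6b2) forms of subunits 6A and 6B in each mouse, with group mean and SD. Cox6a2 and Cox6b2 are higher in all 5 MO mice than in any other mouse, while Cox6a1 and Cox6b1 overlap between groups. Cox6a2 was kept in the set because of its level in MO.

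Cox4i2, a form of subunit 4 known from lung and from pericytes of small vessels, was at 2.20, 1.96 and 1.92 in WY, 1.58, 1.66 and 1.56 in MY, 2.14, 2.10, 2.35, 1.85 and 1.58 in WO, and 1.98, 1.86, 2.16, 2.27 and 2.32 in MO. MY mice were the low group, with every MO mouse and every WY mouse above them. It rose by 0.52 (SE 0.11, FDR 0.00855) in MY vs. MO. In WO vs. MO the difference was 0.11 (SE 0.14, FDR 0.621), with -0.20 in batch 1 and 0.58 (FDR 0.0383) in batch 2. Without MO5 the rise in MY vs. MO was 0.47 (FDR 0.014). Over all genes, 15% were called higher and 12.9% lower in WO vs. MO, and 13.1% and 12.5% in MY vs. MO. The markers of mural cells, the pericytes and smooth muscle of vessels, were 1 higher and 2 lower of 6 in WO vs. MO and 1 higher and 1 lower in MY vs. MO. Their summed FPKM, with Vtn and Rgs5 the largest parts, was 37.0, 36.3, 50.6, 58.9 and 59.05 in MO, 65.2, 65.0, 69.4, 48.4 and 58.3 in WO, 54.5, 59.0 and 55.3 in MY and 65.0, 60.8 and 59.7 in WY, and their part in the result was not tested.

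Cox7a2l, the supercomplex factor, was at 7.91, 7.55 and 7.68 in WY, 7.56, 7.61 and 7.60 in MY, 7.71, 7.57, 7.62, 7.55 and 7.60 in WO, and 7.79, 7.94, 7.76, 7.89 and 7.77 in MO. MO mice were above all WO and MY mice, and WY1 was among them. The rise was small, 0.22 (SE 0.05, FDR 0.00509) in WO vs. MO and 0.24 (SE 0.05, FDR 0.0101) in MY vs. MO. Within batches it was 0.20 (FDR 0.116) and 0.26 (FDR 0.0933). After scaling to the same summed FPKM it was 0.13 (FDR 0.0545) and 0.14 (FDR 0.0668), and without MY1 the FDR in MY vs. MO was 0.0523. After quantile normalization it was 0.12 (FDR 0.117) in MY vs. MO. Without MO5 the rises were 0.24 and 0.26.

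Cox8b, a form of subunit 8 known from heart, skeletal muscle and brown fat, was at 2.17, 2.29 and 2.54 in WY, 1.54, 1.89 and 1.10 in MY, 1.73, 2.04, 2.25, 2.27 and 2.22 in WO, and 1.70, 1.79, 1.87, 1.67 and 1.14 in MO. MY and MO were the lower groups, and WO1 overlapped with MO. The difference in WO vs. MO was -0.47 (SE 0.15, FDR 0.0349), 0.723 of 1 + FPKM in WO, and it was -0.34 (FDR 0.0435) without MO5, the lowest MO library. With 0.1 in place of 1 before the logarithm it was -0.63. Within batches it was -0.22 (FDR 0.324) and -0.84 (FDR 0.0538). The call was lost without WO2 (FDR 0.0551), WO3 (0.0743), WO4 (0.0803), WO5 (0.0804) or MO4 (0.0548).

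Cox7a1, the heart and muscle form of subunit 7A, was at 4.52, 4.33 and 4.72 in WY, 4.10, 4.02 and 4.07 in MY, 4.30, 4.59, 4.98, 4.04 and 4.10 in WO, and 3.28, 4.52, 4.79, 5.15 and 4.36 in MO. MO spanned the range of the other groups, and the difference of 0.02 in WO vs. MO had an SE of 0.32. Markers of skeletal muscle were near the floor of the table, with a summed FPKM of 6 genes, Mylpf the most abundant, of 1.66 to 3.16 in MO and 2.04 to 4.08 in the other mice. Of the 6, 0 were higher by limma in WO vs. MO and 1, Acta1, was lower at -0.25 (SE 0.08). Of 2 brown fat markers 0 were called by limma. The defining one, Ucp1, was at 0.00 to 0.17 in all mice, and Cidea, the more abundant, at 2.16 to 2.60.

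Markers of several cell types were higher or lower in MO, beside the isoforms and beside the lower Ndufs1, Sdha and Atp5b. The shares called over all genes are those given with the mural cell markers. All 5 microglia markers were higher in WO vs. MO and in MY vs. MO. Their summed FPKM, with C1qa the most abundant, was 381, 468, 581, 323 and 363.5 in MO, 101, 98.0, 104, 75.5 and 72.2 in WO, 85.9, 94.2 and 93.0 in MY and 95.2, 88.0 and 98.0 in WY. All 4 astrocyte markers were higher in WO vs. MO and 3 of 4 in MY vs. MO, with a summed FPKM, mostly Gfap, of 2238, 3042, 2755, 2195 and 2374 in MO, 883, 881, 940, 1012 and 795.5 in WO, 1125, 1171 and 1118 in MY and 1404, 1266 and 1248 in WY. Of 5 motor neuron markers 3 were lower in both comparisons, Chat by -0.67 (SE 0.06) in WO vs. MO, with a summed FPKM, mostly Prph, of 84.1, 85.1, 70.4, 91.7 and 79.9 in MO, 119, 92.7, 93.1, 97.8 and 104 in WO, 92.7, 102.5 and 92.3 in MY and 90.4, 91.7 and 101 in WY. Of 4 neuron markers 2 were lower in both comparisons, Snap25 by -0.41 (SE 0.05) in WO vs. MO. Their summed FPKM, with Snap25 the most abundant, was 1564, 1657, 1492, 1638 and 1444 in MO and 1689 to 2079 in the other mice, with no overlap. Of 4 oligodendrocyte markers 2 were lower in both, Mobp by -0.30 (SE 0.08) in WO vs. MO. Their sum, mostly Mbp in every mouse but WO4, was 6471, 6875, 7025, 21148 and 20597 in MO, 9422, 8720, 8662, 4310 and 22968 in WO and 12790 to 15111 in the young mice. Of 3 endothelial markers Pecam1 and Flt1 were lower in WO vs. MO and 0 were called by limma in MY vs. MO. With Cldn5 the most abundant, they summed to 21.6, 30.1, 28.6, 28.7 and 26.4 in MO, 40.04, 41.3, 41.7, 26.1 and 40.1 in WO and 26.6 to 38.7 in the young mice. Of longer lists taken from the study, and so not independent, 60 astrocyte markers had 29 higher and 7 lower in WO vs. MO, 71 neuron markers 7 higher and 31 lower, and 35 oligodendrocyte markers 4 higher and 13 lower. No list was at 0 in any mouse. The part of these cell types in the results was not tested.

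Among the 13529 other genes with a mean of at least 1, those most like Cox6a2 across the 16 mice were Capn3, Plaur and Il17ra, with Pearson r of 0.975, 0.974 and 0.968. Those most like Cox6b2 were Pla2g15, P2rx7 and Fermt3, with r of 0.946, 0.939 and 0.939. These values rest largely on the step between MO and the rest, and over the 11 mice without MO they were 0.822, 0.743 and 0.707 for Cox6a2 and 0.776, 0.702 and 0.741 for Cox6b2. Other isoforms had other nearest genes. For Cox7a1 these were Dtymk, Tmem256 and Mrpl36 (r of 0.931, 0.906 and 0.903), for Ndufa4l2 Haghl, Mrps26 and Sdsl (0.910, 0.909 and 0.898), for Cox4i2 Pcolce, Fxyd2 and Slfn5 (0.853, 0.846 and 0.844), and for Cox8b Cactin, Mdga2 and 2310030G06Rik (0.787, 0.779 and 0.778). All r values come from the same 16 libraries and are given as a description.

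The place of Cox6a2 in the genome bears on how its reads can be assigned. In GRCm38 (mm10) with GENCODE M21, it lies on the minus strand at chr7:128205435-128206387, inside Itgad, which spans chr7:128154376-128223816 on the plus strand. Of the 680 exon bases of Cox6a2, 70 also lie in exons of Itgad. Itgad belongs to a row of integrin genes of white blood cells, with Itgax (CD11c, chr7:128129547-128150657) and Itgam (CD11b, chr7:128062640-128118491) before it on the same strand, all chosen after their values were seen. Itgad was at 1.20, 0.84, 0.44, 0.50 and 0.72 in MO and 0.20 to 0.66 in the other mice, and the groups overlapped. Its difference in WO vs. MO was 0.33 (SE 0.13, FDR 0.0837), smaller than that of Cox6a2. Itgax, at 2.66, 3.23, 4.10, 2.85 and 2.96 in MO and -0.32 to 0.55 elsewhere, rose by 3.05 (SE 0.27, FDR 2.9e-05). Itgam, at 3.11 to 3.99 in MO and 2.34 to 2.72 elsewhere, rose by 0.99 (SE 0.14, FDR 0.000431). Cox6a2 had r of 0.585 with Itgad and 0.954 with Itgax over the 16 mice, values that rest largely on the step between MO and the rest. They were 0.123 and 0.723 over the mice without MO and 0.0205 and 0.327 within the 5 MO mice. The difference between them was not tested. Armc5, on the other side, was not called at 0.09 (SE 0.07), and 9130023H24Rik was higher by 0.16 (SE 0.05, FDR 0.0336).

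**Figure D4:**
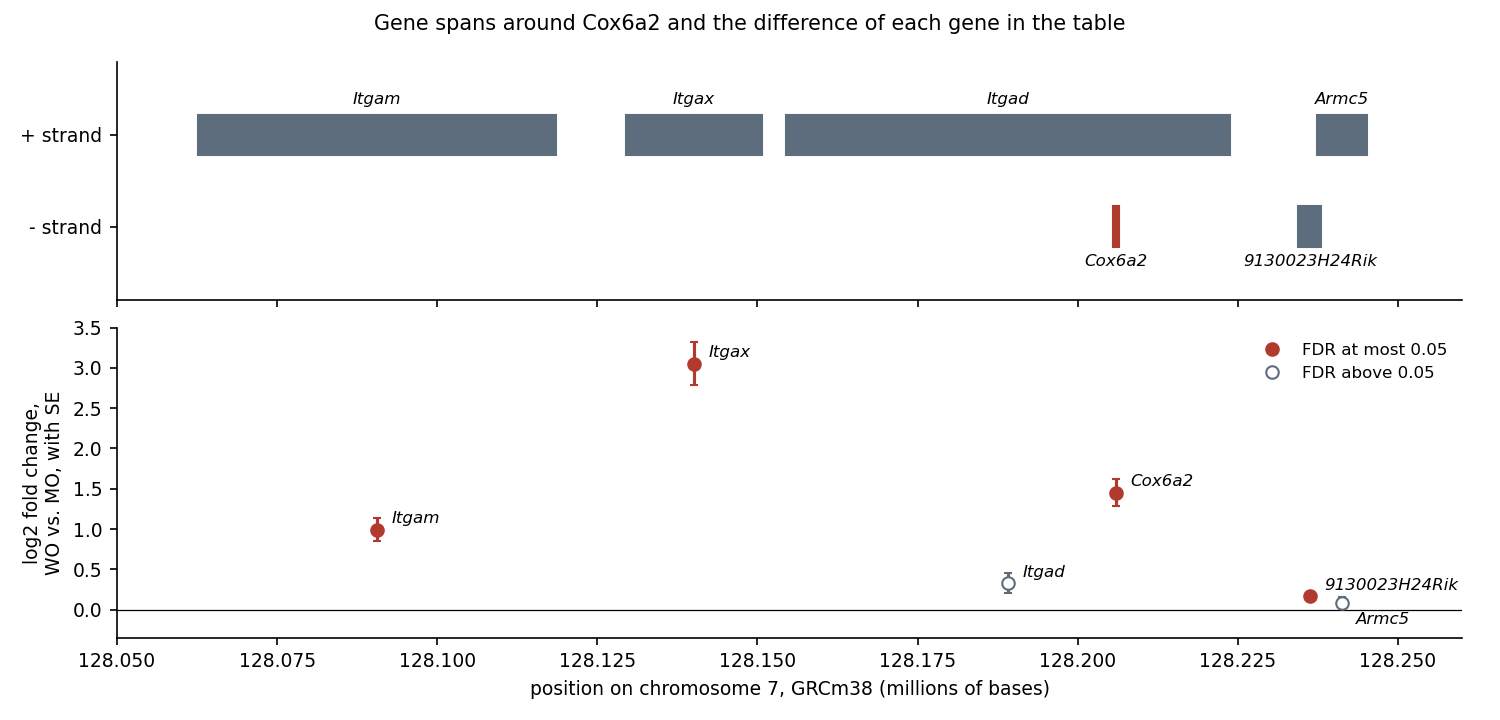
Gene spans around Cox6a2 on chromosome 7 in GRCm38 by strand, above the log2 fold change with SE of each gene in WO vs. MO, with filled points for an FDR of at most 0.05. Cox6a2 lies within the span of Itgad on the other strand, and its rise of 1.45 is above the 0.33 of Itgad.

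Cox6b2, at chr7:4751792-4753094 on the minus strand, overlaps no gene. Of its neighbours, chosen after their values were seen, Brsk1 and Tmem150b were lower in MO by -0.35 (SE 0.05, FDR 0.000317) and -0.37 (SE 0.05, FDR 0.000388) in WO vs. MO, the direction opposite to Cox6b2. Il11 and Suv420h2 were not called, at -0.10 (SE 0.05) and -0.27 (SE 0.10). Of 80 genes of the set with a single place in the annotation, 28 overlap the span of a gene on the opposite strand, 25 share exon bases with one and 44 overlap no gene. They are spread over 19 chromosomes, with 3 on the X chromosome.

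Complex V, ATP synthase, had 5.88% of its genes called in WO vs. MO, against 27.9% over all genes. The 1 called of 17 was the catalytic beta subunit Atp5b. It was at 9.69, 9.67 and 9.68 in WY, 9.68, 9.64 and 9.68 in MY, 9.84, 9.65, 9.73, 9.73 and 9.75 in WO, and 9.50, 9.68, 9.51, 9.69 and 9.54 in MO. MO1, MO3 and MO5 were below all other mice, whereas MO2 and MO4 lay among them. The log2 difference was -0.15 (SE 0.05, FDR 0.0472), 0.898 of 1 + FPKM in WO, and in MY vs. MO -0.08 (SE 0.06, FDR 0.334). Within batches it was -0.18 (FDR 0.191) and -0.12 (FDR 0.346). The call was lost without WO1 (FDR 0.0987), WO3 (0.0747), WO4 (0.0801), WO5 (0.0933), MO1 (0.0924), MO3 (0.106) or MO5 (0.0934). Atp5a1, the alpha subunit beside it, and Atp5c1, the rotor subunit gamma, had differences of -0.09 (SE 0.04, FDR 0.132) and -0.02 (SE 0.08). With other scaling more genes of the complex were called lower in WO vs. MO. Scaling to the same summed FPKM called Atp5a1, Atp5b, Atp5g1, Atp5g3, Atp5o and Atp5sl, and quantile normalization all of these but Atp5sl. In MY vs. MO, Atp5b was called lower with both, and Atp5a1 and Atp5g3 with quantile normalization. Atp5k, a subunit of the membrane part, had the highest mean level at 9.74 and a difference of 0.02 (SE 0.17), and Atp5s the lowest at 4.06 and a difference of -0.03 (SE 0.06).

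The genes Atp5g1, Atp5g2 and Atp5g3 encode the same mature subunit c, which forms the turning ring of ATP synthase. Atp5g2 took 20.4%, 19.8%, 22.1%, 21.1% and 22.7% of their summed FPKM in MO and 17.0% to 19.4% in the other mice. The shares of MO did not overlap with the rest, and this is a description with no test. Atp5g1 had a log2 difference of -0.26 (SE 0.09, FDR 0.0539) in WO vs. MO, with -0.42 (FDR 0.0371) in batch 1 and -0.02 in batch 2. Atp5g2 and Atp5g3 were at 0.12 (SE 0.09) and -0.14 (SE 0.09). In MY vs. MO they were at -0.11, 0.26 and -0.01 in the order Atp5g1 to Atp5g3, none called. As given above, Atp5g1 and Atp5g3 were called lower in WO vs. MO with scaling to the same summed FPKM and with quantile normalization.

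Before the end stage, few differences stood out from the spread. In WY vs. MY, the genotypes at 50 days, 0 of the 82 genes were called by limma, where 0.0055% of all genes were. Of the 82, 8 had an unadjusted p-value under 0.05, where 1301 of all 18167 genes did. Estimates were lower in MY for 76 of the 82, with a median of -0.14 against 0.00 over all genes, and the MY mice were close together while WY2 was well below WY1 and WY3. Without WY2 the median was -0.24, 57 had an unadjusted p-value under 0.05 and still 0 were called, where 0.0165% of all genes were. The number of all genes with such a p-value without WY2 is not given here. The median was -0.08 without WY1 and -0.07 with the length trend removed. Lowest were Cox8b at -0.82 (SE 0.20, FDR 0.564), Ndufa4l2 at -0.53 (SE 0.18, FDR 0.657), Cox7a1 at -0.46 (SE 0.10, FDR 0.516) and Cox4i2 at -0.43 (SE 0.08, FDR 0.468) among isoforms whose 3 MY mice were all below the 3 WY mice. How many of all genes separated in this way is not given here. In WY vs. WO, the ages of the wild-type line, 0 of the 82 were called by limma, where 1.12% of all genes were. Only 1, Sdhc, had an unadjusted p-value under 0.05, at -0.16 (SE 0.06, FDR 0.299), where 2447 of all 18167 genes did. The median difference there was 0.03, and its direction depended on single mice: it was -0.07 without WY2, with 64 estimates below 0, -0.02 without WO2 or WO3, and 0.12 in batch 1 alone.

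Whether the difference with age depended on genotype was tested by the interaction, the MO minus MY difference less the WO minus WY difference. It was called for 3 of the 82 genes, where 17.7% of all genes were: Cox6a2 at 1.68 (SE 0.24, FDR 0.000344), Cox6b2 at 1.21 (SE 0.29, FDR 0.011) and Cox7a2l at 0.35 (SE 0.10, FDR 0.0216). The call of Cox7a2l was lost without MY1 (FDR 0.0592), with scaling to the same summed FPKM (0.22, FDR 0.0677), with quantile normalization (0.21, FDR 0.085) and in batch 1 alone (0.32, FDR 0.108). Without MO5 the values were 1.68, 1.18 and 0.36. As before, Cox6a2 was kept in the set because of its level in MO. Scaling gave 2 higher and 5 lower genes and quantile normalization 2 higher and 7 lower. The share called was then 8.54% against 19.3% of all genes with scaling and 11% against 19.8% with quantile normalization. With 0.1 in place of 1 before the logarithm the value of Cox6a2 was 2.85. Cox4i2, called in MY vs. MO, was not called here (0.54, SE 0.20, FDR 0.0849), so its difference with age was not shown to depend on genotype.

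Related genes of the pathway were counted in the same way, with no test between lists. Beside these counts stand the shares over all genes, 15% higher and 12.9% lower in WO vs. MO and 13.1% higher and 12.5% lower in MY vs. MO. Among 11 further genes of the respiratory chain, such as Cyc1, Cycs and Ndufab1, 0 were called by limma in either comparison, and the medians were -0.13 in WO vs. MO and 0.07 in MY vs. MO. Of 13 genes of coenzyme Q synthesis 2 were higher and 1 lower in WO vs. MO, and 1 was higher in MY vs. MO, Adck4, at 0.36 (SE 0.06) and 0.37 (SE 0.08). Of 45 assembly factors 0 were higher and 3 lower in WO vs. MO and 4 higher and 3 lower in MY vs. MO. The same 3 were lower in both: Atpaf1, which helps to build the catalytic head of ATP synthase, by -0.35 (SE 0.06) and -0.29 (SE 0.04), Cox15, which makes heme A for complex IV, by -0.21 (SE 0.05) and -0.18 (SE 0.06), and Acad9, needed to build complex I, by -0.14 (SE 0.04) and -0.15 (SE 0.04). Genes named from these lists were chosen after their values were seen.

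Of 18 genes of the TCA cycle, which feeds NADH and succinate to the chain, 2 were higher and 5 lower in WO vs. MO and 2 higher and 4 lower in MY vs. MO. Citrate synthase, Cs, was lower by -0.15 (SE 0.04) and -0.16 (SE 0.04). Idh2, the isocitrate dehydrogenase that makes NADPH, was at 5.53, 5.32, 5.05, 4.65 and 4.90 in MO and 4.21 to 4.58 in all other mice, and rose by 0.66 (SE 0.15, FDR 0.00704) and 0.75 (SE 0.18, FDR 0.018). Suclg2, of the succinyl-CoA ligase that makes GTP, rose by 0.33 (SE 0.06) and 0.37 (SE 0.07). The median of the list was -0.11 and -0.12.

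Of 19 regulators of mitochondrial gene expression 0 were higher and 6 lower in WO vs. MO and 0 higher and 4 lower in MY vs. MO. The nuclear receptor Esrrg was at 3.53, 4.35 and 4.10 in WY, 4.23, 4.16 and 4.21 in MY, 4.11, 4.26, 4.35, 4.17 and 4.24 in WO, and 3.78, 3.89, 3.70, 3.81 and 3.79 in MO. MO was below WO and MY in every mouse, and WY1 was lower still. Esrrg fell by 0.43 (SE 0.05, FDR 0.000155) and 0.40 (SE 0.05, FDR 0.000792), its relative Esrrb by 0.34 and 0.25, and Lrpprc, which binds mitochondrial messenger RNA, by 0.24 and 0.21. The coactivator Ppargc1a was called in MY vs. MO at -0.20 (SE 0.04) and not in WO vs. MO, where it was at -0.13 (SE 0.05, FDR 0.107).

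Ribosomal protein genes were counted as well, since many of them are short like the subunits. Of 77 mitochondrial ones 2 were higher and 0 lower in WO vs. MO and 6 higher and 0 lower in MY vs. MO, with medians of 0.03 and 0.08. Of 101 symbols of the cytosolic ribosome, among them a few kinases that share the prefix, 49 were higher and 2 lower in WO vs. MO and 79 higher and 4 lower in MY vs. MO, with medians of 0.27 and 0.40. The medians of the 82 genes of oxidative phosphorylation were -0.07 and 0.12 in the same comparisons.

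Promoter sequences were read for the genes to show what the abundant and the restricted forms of a subunit have at their starts. Promoters from RefSeq (GRCm38.p6), 250 bases before to 50 after the start, were at hand for 65 of the 82, and Cox6a2 was not among them. Their median GC content was 57.3%, against 52.7% over all 27025 promoters. Each was searched on both strands for GCATGCGC, letters of the site of nuclear respiratory factor 1 (NRF1), which regulates many of these genes. Of the 65, 10 held it (15.4%), against 2.8% of all promoters and 5.34% of those of genes with a mean of at least 1. The YY1 letters AAGATGGC were in 8 (12.3%, against 2.88% and 4.66%), the ETS letters CCGGAAGT in 5 (7.69%, against 4% and 7.85%) and the box CCAAT in 28 (43.1%, against 37.9% and 38.5%). A match is a description of letters and not a bound site.

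The promoters of Cox6a1, Cox6b1 and Cox6b2, the forms of subunits 6A and 6B in the table of promoters, lie at chr5:115348909-115349208, chr7:30626065-30626364 and chr7:4753045-4753344, all on the minus strand, and are printed 5′ to 3′ with matches in capitals. In Cox6a1 the capitals mark an NRF1 match on each strand, which overlap, and then a CCAAT box, and in Cox6b1 and Cox6b2 they mark 3 CCAAT boxes each, read as ATTGG where the box is on the other strand. Cox6b2, which rose in MO, and Cox6b1, which was not called, thus both held CCAAT and neither held the NRF1 letters in this window.
Cox6a1: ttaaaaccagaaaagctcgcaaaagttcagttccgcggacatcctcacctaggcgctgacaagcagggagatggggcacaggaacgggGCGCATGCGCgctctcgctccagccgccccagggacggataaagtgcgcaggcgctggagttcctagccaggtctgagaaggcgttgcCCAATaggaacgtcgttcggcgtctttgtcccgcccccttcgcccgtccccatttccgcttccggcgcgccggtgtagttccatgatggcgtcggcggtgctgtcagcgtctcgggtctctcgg
Cox6b1: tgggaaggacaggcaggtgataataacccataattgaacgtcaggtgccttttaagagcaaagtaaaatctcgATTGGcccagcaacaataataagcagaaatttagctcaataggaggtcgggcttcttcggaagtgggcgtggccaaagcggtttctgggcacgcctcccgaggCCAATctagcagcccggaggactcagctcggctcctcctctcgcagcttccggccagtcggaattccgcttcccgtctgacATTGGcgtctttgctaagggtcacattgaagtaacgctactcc
Cox6b2: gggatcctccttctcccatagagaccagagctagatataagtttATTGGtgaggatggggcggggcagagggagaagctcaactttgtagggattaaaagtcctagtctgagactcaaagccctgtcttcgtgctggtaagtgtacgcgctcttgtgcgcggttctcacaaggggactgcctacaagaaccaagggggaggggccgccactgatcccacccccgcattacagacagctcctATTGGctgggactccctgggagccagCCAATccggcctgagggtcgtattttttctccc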

How the data were processed

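RNA of 16 spinal cords was sequenced by the authors from stranded mRNA libraries, and the deposited table holds 1 value per gene and mouse in log2(1 + FPKM). The submitters' notes name Trimmomatic, TopHat and Cufflinks and the genome mm10. The authors removed genes at 0 in at least 8 mice and corrected for the 2 batches with ComBat, whose covariates were not stated. Depths and counts were not used here.

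Groups came from the labels. Differences, the second group minus the first, were fitted over all 18167 genes with limma 3.58.1 (lmFit and eBayes, two-sided) in R 4.3.3, and the interaction in 1 fit of 4 group means. FDR is the Benjamini-Hochberg adjusted p over all genes, and called means at most 0.05. Medians of lists have no test. Summaries used Python 3.11.15 with NumPy 2.4.6, pandas 2.3.3 and SciPy 1.17.1, and figures matplotlib 3.10.9. Shares and sums used FPKM recovered from the logarithms. Positions and the longest protein-coding transcripts came from GENCODE M21. The fitting code was run on simulated data with large planted changes and noise drawn separately for each gene. That run does not test small differences or genes that move together.

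Named members were core subunits, isoforms known from particular tissues, the 3 largest called changes in each direction per comparison, the highest and lowest mean of each complex, the c subunit genes and those nearest the level limit. Members and lists were chosen with earlier results of these data known. Alternatives were scaling to the same summed FPKM, quantile normalization, a constant of 0.1, a minimum mean of 1, batch 1 mice, batch as a term, all groups in 1 fit, an intensity trend, a replicate block, removal of a transcript length trend and leaving out each mouse. Some of the named members and list genes are not reported here. Batch 2 mice alone and omission of the 294-day-old mice were added after seeing the data.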

Additional observations from a re-analysis of the deposited data

Results flagged for a closer look

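Of 190 groups of 5 mice, WO and MO for the members, markers and list genes named and for medians, shares and marker sums, 15 held a mouse further from the others than Dixon's limit of 0.71 of the range. Chance alone gives about 1 in 20. Markers and list genes were added to this search after the values were seen. In the library labelled MO5 these were Cox8b at 1.14, Xist at 3.21, Ddx3y at 1.95, Uty at 1.05 and Eif2s3y at 1.82, where the sex-linked genes go together and are 1 observation. Cox8b was lower in WO vs. MO with and without that library, at -0.47 and -0.34.

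In WO4 they were Mbp at 5.36, Cldn5 at 3.94, Pecam1 at 2.81 and Cidea at 2.58, with the endothelial sum at 26.07 and the brown fat sum at 5.00 FPKM. The others were the oligodendrocyte sum in WO5 at 22970 FPKM, Mylpf in WO3 at 1.99, Acad9 in WO2 at 4.01 and Flt1 in MO3 at 2.97. The sums follow their genes, so they are not separate observations.

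The difference with age was not the same in both genotypes for 3 of the 82 genes (3.66%, against 17.7% of all genes), by limma's interaction test: Cox6a2 at 1.68, Cox6b2 at 1.21 and Cox7a2l at 0.35, each larger in the mutant line. The call of Cox7a2l was lost in 4 of 25 alternatives. Cox6a2 passed the level limit of the set through its MO values.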

How the results depend on the processing

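The rises of Cox6a2 and Cox6b2 in WO vs. MO, MY vs. MO and the interaction, and that of Cox4i2 in MY vs. MO, kept their direction and an FDR of at most 0.05 in every alternative run. Cox6a2 ran from 1.27 to 2.35 and Cox6b2 from 0.86 to 1.06 in WO vs. MO. Cox6a2 was in the set only through its MO values, which these alternatives do not change. Small downward differences depended on the settings: of 22 alternatives, Atp5b lost its call in 15, Sdha in 12, Cox8b in 9 and Ndufs1 in 2. In MY vs. MO, Ndufs1 lost its call in 4 of 18, batch 1 alone among them.

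In WO vs. MO, the 4 genes lower in MO became 20 with scaling, 2 with a constant of 0.1, 18 with quantile normalization, 1 in batch 1 alone, 2 with an intensity trend, 12 with the length trend removed and, added after seeing the data, 0 in batch 2 alone (35 at an unadjusted p-value under 0.05, in either direction) and 1 without the 294-day-old mice. Leaving out 1 mouse gave 1 to 6: 1 without WO5, 2 without WO1, WO3, WO4, MO3 or MO5, 5 without WO2, 6 without MO2. The 3 higher became 2 with scaling, 2 in batch 1 alone, 5 in batch 2 alone and 3 to 4 on leaving out a mouse. Called in either direction were 3.66% of the members in batch 1 alone, against 14.4% of all genes. The shares were 6.1% and 9.09% in batch 2 alone, and 4.88% and 16.7% without the 294-day-old mice. They were 18.5% and 28.2% with the length trend removed, 6.1% and 26.1% with a constant of 0.1, and 6.1% and 27.5% with an intensity trend. On leaving out a mouse they ran from 4.88% to 11% and from 22.1% to 28.3%. Over all genes, the number matching the 35 is not given here. The median of the members was 0.22 in batch 2 alone, and -0.13 to -0.00 on leaving out a mouse. In MY vs. MO, the 1 lower gene became 6 with scaling, 10 with quantile normalization and 0 in batch 1 alone, and 0 to 1 on leaving out a mouse (0 without MY1 or MY3). The 4 higher became 3 to 15 (15 without MO1), and the median of 0.12 ran from 0.04 to 0.19 on leaving out a mouse. It was 0.01 with scaling, -0.00 with quantile normalization, -0.01 with the length trend removed and 0.03 in batch 1 alone, where all genes had -0.07, -0.03, -0.00 and 0.00. Called in MY vs. MO were 4.88% of the members against 24.9% of all genes in batch 1 alone, and 19.5% against 28.2% without MO1. Without MY1 the shares were 3.66% and 14.2%, and without MY3 4.88% and 14.7%. The 3 genes of the interaction, all higher, became 7 with scaling (2 higher, 5 lower), 9 with quantile normalization (2 higher, 7 lower) and 5 with the length trend removed (3 higher, 2 lower), and 2 to 5 on leaving out a mouse (2 without MY1, 5 without WY2, MO1 or MO2). The shares were 6.17% against 17.2% of all genes with the length trend removed and 2.44% against 12.3% without MY1. Without WY2, MO1 or MO2, 6.1% of the members were called, against 21.7%, 19.8% and 15.4% of all genes. WY vs. WO and WY vs. MY stayed at 0 called genes. Cox4i1 turned to -0.30 in WO vs. MO and -0.22 in MY vs. MO with quantile normalization. The cause was not tested.

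With mice paired by number as a replicate block, the lower genes were 1 in WO vs. MO and 0 in MY vs. MO. In MY vs. MO this ended the call of Ndufs1 (FDR 0.125). With the block, 4.88% of the members were called in both comparisons, against 22.7% and 20.6% of all genes. Like-numbered mice had r of 0.04, 0.10, -0.23, -0.09 and 0.05 in WO vs. MO and of 0.20, 0.09 and 0.17 in MY vs. MO, and the labels name no pairs.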

Other observations

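Limits bear on what these values can show. Groups of 3 and 5 mice can leave small differences uncalled, and a gene not called is not shown to be unchanged. Genotype and line cannot be told apart, nor can genotype and end-stage disease within WO vs. MO. The old mice of batch 2 have no young mice beside them, so MY vs. MO is free of batch only among batch 1 mice. RNA levels of bulk spinal cord do not give protein, enzyme activity or the cell of origin. Reads of Cox6a2 and Itgad cannot be told apart where their exons overlap.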
